A study of Mus musculus with 21 samples.

Results

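The loci described here are intervals annotated as messenger RNA ends (3′ UTRs). They were read often in mouse heart and yet showed little or no more label in Lmna +/+ hearts with the labelling enzyme than in those without it. A locus is an annotated 3′ UTR interval of 1 strand. Where intervals overlapped, the one with the most reads was kept, which left 122692 of 208307 intervals. A locus had to lie outside the mitochondrial chromosome, hold at least 1500 pooled reads in each Lmna +/+ group, and show a T>C conversion in at most 5.0% of its reads from Lmna +/+ hearts without Uprt. These conditions left 4734 eligible loci. The 292 members are the eligible loci whose share of T>C reads in Lmna +/+ hearts with Uprt was at most 1.1 times the share without Uprt, and the other 4442 eligible loci serve for comparison. The members were thus chosen by the T>C shares of the Lmna +/+ mice, and those shares are given as a description only.

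The data come from 21 mice, with 1 library per mouse, and the RNA was extracted from the free wall of the left ventricle. Each mouse carried the Myh6MCM transgene (Tg/0), which expresses a tamoxifen-activated Cre under the Myh6 promoter, a promoter used by cardiomyocytes. Each received tamoxifen on 4 days at 6 to 8 weeks of age and 4-thiouracil 2 weeks later, and hearts were taken 6 hours after that. The 4 groups were 8 mice that were Lmna +/+ with Uprt Tg/0 (4 females, 4 males), 6 that were Lmna F/F with Uprt Tg/0 (4 females, 2 males), 4 that were Lmna F/F without Uprt (2 females, 2 males) and 3 that were Lmna +/+ without Uprt (all male). F is the floxed allele that Cre deletes, and strain is not given in the labels used here. Because Cre acts in cardiomyocytes, the other cells of a Lmna F/F heart keep the gene. No gene name could be paired with the loci, so Lmna itself and the markers of cardiomyocytes, fibroblasts, endothelium, macrophages and other cells were not measured, and the labelled tissue was not checked against them.

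Uracil phosphoribosyltransferase, the product of Uprt, turns 4-thiouracil into a nucleotide that RNA polymerase can build into new transcripts. Iodoacetamide alkylates the built-in thiol, and reverse transcription then reads the base as C, so that a T>C read marks RNA made after dosing. Such reads also arise without label from sequencing errors, sequence variants and RNA editing. The T>C share of a transcript thus reflects how fast it is renewed, in which cells it is made and how high this background is. Lmna encodes lamins A and C, filament proteins of the nuclear envelope whose loss in cardiomyocytes causes dilated cardiomyopathy.

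Libraries held 25976720 to 51007747 reads on the kept intervals. Members took 12.1 to 14.9% of them, but 1 locus, chr17:40157244-40159092 (mm39, forward strand, 1849 bases), held 9.62 to 12.6% of all reads alone, and the other 291 members held 2.11 to 3.10%. Pooled shares are therefore given without that locus. Among Lmna F/F mice without Uprt, replicates 1 and 2 stood apart from replicates 3 and 4 at several, though not all, of the loci of largest Lmna change. How many loci showed this was not counted. For the Lmna effect without Uprt and the T>C share in F/F hearts, the members called higher are counted with and without replicates 1 and 2. The same holds for the loci of largest change whose call or size turned on them. Counts within subsets of members, the overlap of the 2 Lmna comparisons and their difference are given only with these mice. Counts of members with libraries left out are given without the count over all loci in the same fit. They do not show whether the members moved or all calls did.

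In the pooled reads of the 291 members, 2.88% ± 0.267 (SD, n = 8) carried T>C in Lmna +/+ hearts with Uprt and 3.04% ± 0.371 (SD, n = 3) in those without. The other eligible loci had 3.70% ± 0.546 (n = 8) with Uprt and 1.66% ± 0.230 (n = 3) without. In Lmna F/F hearts, which played no part in the choice, the 291 members had 3.05% ± 0.239 (n = 6) with Uprt and 2.73% ± 0.223 (n = 4) without. The member shares of these 2 F/F groups overlapped, at 2.71 to 3.37% with Uprt and 2.55 to 3.02% without. At the other eligible loci the lowest F/F library with Uprt, at 3.68%, lay above the highest without, at 2.18%.

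**Figure D1:**
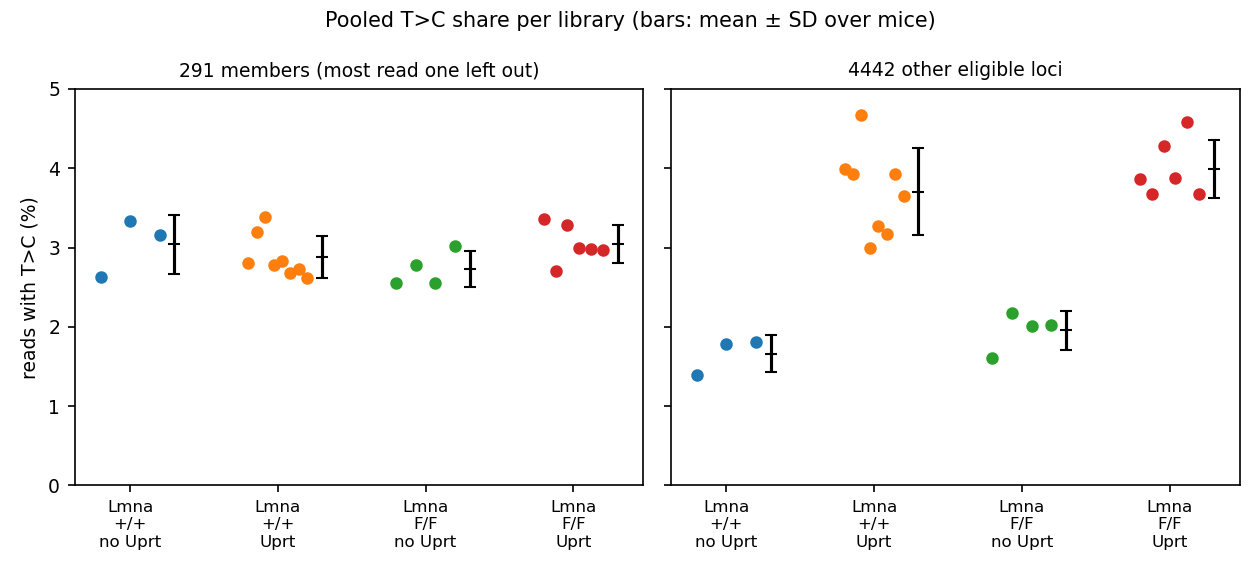
Percent of reads with T>C, pooled over loci, for each library (points) in the 4 groups, with the mean and SD over mice (bars); left, 291 members without the most read one; right, 4442 other eligible loci. Members sat at 2.55 to 3.38% in every group, and the other loci at 3.00 to 4.67% with Uprt and 1.40 to 2.18% without. In the +/+ groups this contrast was set by the rule that chose the members. In the F/F groups, which the choice did not use, the other loci had at least 3.68% with Uprt and at most 2.18% without.

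Per locus, the median share of T>C reads among members was 2.50% in Lmna +/+ hearts without Uprt and 2.18% with it, against 1.95% and 4.82% at the other eligible loci. The median ratio of the 2 shares, where defined, was 0.930 at members (range 0.256 to 1.0997) and 2.44 at the others. At 1 member both shares were 0 and the ratio was undefined. At 208 of the 292 members the share was lower with Uprt than without. At the boundary of the rule, the members nearest to it were chr2:25451863-25452094, chr1:36737195-36739156 and chr15:55397490-55397711 with ratios of 1.0997, 1.0972 and 1.0969. The nearest loci left out were chr19:8955308-8955843 and chr8:106662371-106662425, both at 1.1003, and chr16:88256833-88257081 at 1.1008. These 6 loci do not form separate groups.

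**Figure D2:**
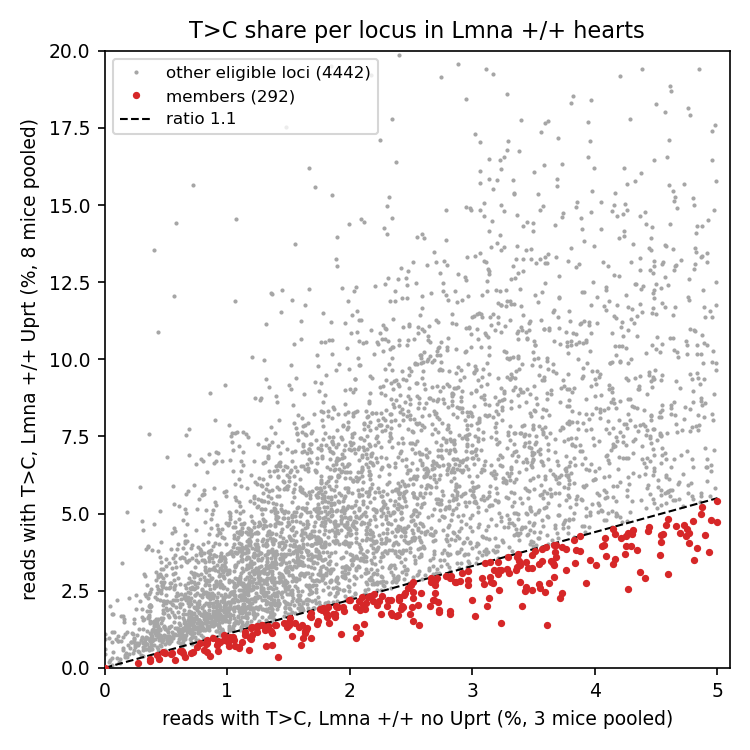
Percent of reads with T>C per eligible locus in Lmna +/+ hearts, pooled over 3 mice without Uprt (x axis) and 8 mice with Uprt (y axis); red points are the 292 members, grey points the 4442 other eligible loci, of which 18 lie above the plotted range of 20%. Members fill the area under the dashed line of ratio 1.1 by construction, and they occur along the whole range of shares without Uprt.

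The precision of a ratio rested on few T>C reads, with a median of 77 per member in the 3 mice without Uprt. Shares also differed between the 3 mice. At 58 members the highest of the 3 shares without Uprt was at least 2 times their median, and membership fell to 167 when Lmna +/+ no Uprt replicate 3 was left out and rose to 356 without Lmna +/+ Uprt replicate 3. Only 82 members stayed in when each of the 11 Lmna +/+ libraries was left out in turn. The minimum of 1500 reads was kept, so that leaving out 1 of the 3 mice without Uprt also lowered the eligible loci from 4734 to between 3444 and 3669. The loss of reads and the spread between mice cannot be told apart in these counts. The 82 had a median of 58.2 CPM, and the other 210 members 22.0 CPM.

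The locus chr9:59586118-59586658 shows such a mouse. Without Uprt the 3 Lmna +/+ mice had T>C in 0.710, 10.6 and 0.809% of its reads, and the 8 with Uprt in 1.02 to 2.98% (median 2.20%). Replicate 2 alone raised the pooled share without Uprt to 3.41% and put the ratio at 0.586. In Lmna F/F hearts, 5 of 6 mice with Uprt had 2.05 to 2.74% and replicate 1 had 13.2%, while the 4 without Uprt had 0.983 to 1.24%. The 2 F/F groups did not overlap. On the log2 scale, the odds ratio for T>C was 1.62 ± 0.42 (SE; edgeR quasi-likelihood test, Benjamini-Hochberg adjusted p = 0.00602) and 1.07 without replicate 1 (adjusted p = 0.000344).

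As a group, members had shorter intervals than the other eligible loci, with a median of 562 against 1059.5 bases. Intervals of 300 bases or fewer made up 29.5% of members and 20.7% of the others, and those of 3000 bases or more 7.88% and 16.6%. Members also held less T, at a median of 25.6% of the bases against 28.1%, and a read covered a median of 20.3 reference T positions against 23.3. Fewer T positions per read give fewer chances of a conversion. Their part in the ratio was not tested, and counting conversions per T position in place of reads gave 272 members, 240 of them shared. The level was alike, with a median of 29.2 CPM (read counts scaled by library size) at members and 29.9 at the others. Of the members, 49 reached 100 CPM and 4 reached 1000 CPM. Over 50% of the reads were multimapped at 21 members (7.19%) and at 5.29% of the other eligible loci.

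Some members lay in runs along a chromosome. Another member lay within 200000 bases at 75 of 292 members (25.7%), and a member lay that near at 11.6% of the other eligible loci. The 75 formed 31 runs, and 9 of the runs held 3 members or more. In 4 of those 9, every eligible locus between the ends was a member, namely chr10:97319201-97408565, chr3:90431804-90600052 and chr6:48500452-48810986 with 4 members each and chr15:74830563-74917250 with 3. Members of a run need not be separate genes, since intervals that adjoin without overlap can belong to 1 transcript unit. By chromosome, members made up between 2.68% (chromosome 12) and 9.75% (chromosome 9) of the eligible loci of an autosome. They made up 5.26% on chromosome X.

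The most read member, chr17:40157244-40159092, had 92114 to 134546 CPM (median 126956) in Lmna +/+ hearts with Uprt and 88104 to 126976 (median 111968) in F/F hearts with Uprt. T>C reads made up 4.01% ± 0.156 (n = 8) and 3.99% ± 0.279 (n = 6) of its reads there, and 3.69% ± 0.204 (n = 3) and 3.81% ± 0.115 (n = 4) in the +/+ and F/F hearts without Uprt. Its level and its share overlapped across the 4 groups, and 15.4% of its reads were multimapped. Which RNA its reads came from, and whether that is a messenger RNA, was not determined. Next came chr11:95959693-95963929 with a mean of 2113 CPM, of which 47.1% of reads were multimapped, chr8:70960922-70960981 with 1683 CPM and chr7:3623000-3623162 with 1033 CPM. None of these 4 differed past the threshold in T>C share between F/F hearts with and without Uprt (adjusted p = 0.296, 0.399, 0.846 and 0.135) or in level between Lmna genotypes with Uprt (adjusted p = 0.683, 0.296, 0.961 and 0.250).

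Below 1000 CPM, chr10:97353518-97354005 had a mean of 995 CPM, chr7:140478858-140478900 806 CPM and chr1:120041020-120041263 613 CPM. At the first, T>C reads made up 3.30% ± 0.310 of reads in +/+ hearts with Uprt (n = 8) and 3.66% ± 0.0317 without (n = 3), and 3.50% ± 0.196 (n = 6) and 3.62% ± 0.255 (n = 4) in F/F hearts with and without Uprt. The F/F ranges overlapped at each of the 3 loci, with adjusted p of 0.794, 0.423 and 0.204.

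The same measure in mice that the choice did not use was the T>C share of Lmna F/F hearts, 6 with Uprt against 4 without. It was tested on converted and unconverted reads in edgeR at 10857 loci, of which 50.8% were called higher with Uprt and 0.203% lower at an adjusted p under 0.05. Of the members, 254 held enough T>C reads, and 30 (11.8%) were higher and 4 (1.57%) lower. Among the other eligible loci, 3093 of 4337 (71.3%) were higher and 2 lower. The median log2 odds ratio was 0.17 at members (quartiles −0.09 and 0.55), 1.32 at the other eligible loci and 1.20 over all loci tested. The other 38 members had too few T>C reads for the test. At the 82 members that met the rule with each Lmna +/+ library left out, 5 of 76 were higher and 3 lower, with a median of 0.07. Without F/F no Uprt replicates 1 and 2, 19 members were higher.

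**Figure D3:**
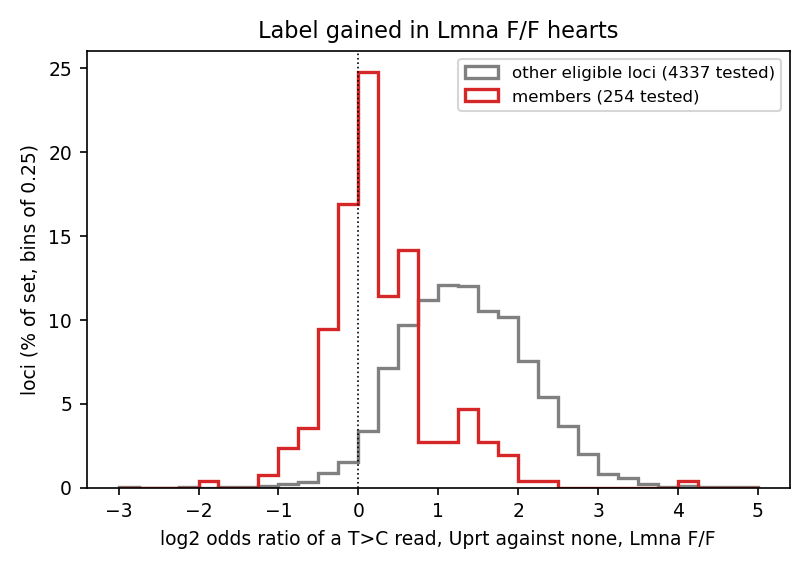
Log2 odds ratio for T>C in Lmna F/F hearts, 6 with Uprt against 4 without (x axis, bins of 0.25), as a percent of the loci of each set (y axis), for 254 members (red) and 4337 other eligible loci (grey). Members centre near 0 with a median of 0.17 and a tail to the right; the others centre at 1.32.

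The 4 members with the largest gains, the extremes of the set, had a higher T>C share with Uprt than without in F/F hearts. Among hearts with Uprt, however, the +/+ and F/F shares overlapped at each of the 4, so these loci do not show label gained in F/F hearts alone. At chr2:154534469-154534595, F/F hearts with Uprt had 1.099 to 2.79% T>C reads (median 1.87%), and those without had 0, 0.175, 0.220 and 0%. The F/F groups did not overlap, and the log2 odds ratio was 4.00 ± 0.71 (SE; edgeR, adjusted p = 0.000622), but 0.0699 was the adjusted p in a quasi-binomial model. In the +/+ hearts without Uprt the shares were 2.97, 0.701 and 0.541%, so that replicate 1 set the pooled share. The +/+ hearts with Uprt had 0.586 to 2.58%.

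At chr7:139730187-139730699, F/F hearts with Uprt had 2.73 to 7.86% (median 4.34%) and those without 0.499 to 1.29%, again without overlap. Here the 3 +/+ mice without Uprt were close, at 3.05 to 4.03%, and higher than all 4 F/F mice without Uprt. The +/+ mice with Uprt had 1.52 to 5.85%. Its log2 odds ratio in F/F was 2.42 ± 0.51 (SE; edgeR, adjusted p = 0.00183). The other 2 were chr9:21614265-21615513 at 2.24 ± 0.65 (adjusted p = 0.0119) and chr6:58669228-58669854 at 1.95 ± 0.56 (adjusted p = 0.0114), both with overlapping groups. Both lost the call without F/F no Uprt replicates 1 and 2 (edgeR, adjusted p = 0.115 and 0.0993).

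The 4 members called lower with Uprt in F/F hearts were chr10:76544626-76545392 (log2 odds ratio −1.84), chr11:116536421-116537784 (−0.83), chr13:13684653-13686854 (−0.78) and chrX:72538403-72539539 (−0.61). At the first, shares differed widely between mice of 1 group. The 4 F/F mice without Uprt had 9.65, 2.31, 13.7 and 11.3%, and the 6 with Uprt had 9.41% in replicate 1 and 0.923 to 2.22% in the others. At chr13:13684653-13686854 the F/F groups did not overlap, at 0.614 to 1.77% with Uprt and 2.03 to 2.54% without. These calls depended on single libraries (edgeR, adjusted p without each). The locus on chromosome 10 lost its call without F/F Uprt replicate 5 (0.0819) or F/F no Uprt replicate 3 (0.128). That on chromosome 11 lost it without F/F Uprt replicate 1 or 5 (0.0622 and 0.0511) or F/F no Uprt replicate 2 or 4 (0.0744 and 0.0717). That on chromosome 13 lost it without F/F Uprt replicate 1 (0.0995) or any of the 4 F/F mice without Uprt (0.0558 to 0.112). That on chromosome X lost it without F/F Uprt replicate 1, 2, 3, 4 or 6 or F/F no Uprt replicate 1, 2 or 4 (0.0530 to 0.275). Without F/F no Uprt replicates 1 and 2 together, only the first of the 4 kept its call (−2.59, adjusted p = 0.0112; the others −0.89, −0.87 and −0.26, adjusted p = 0.0580, 0.0774 and 0.413). The number of members called lower was 1 without F/F Uprt replicate 1 and 2 without F/F no Uprt replicate 1, 2 or 4, and those need not be among the 4.

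Most members were not called for a change in level with Lmna deletion, but a larger percent of them than of the other loci was called higher in F/F hearts. Whether the sets differ was not tested. All reads were compared between 6 Lmna F/F and 8 Lmna +/+ hearts with Uprt, in 1 edgeR fit of 21 libraries and 31369 loci with group and sex as terms. At an adjusted p under 0.05, 2.19% of loci were higher in F/F and 0.261% lower. Of the 292 members, 28 (9.59%) were higher and 2 (0.685%) lower, against 65 (1.46%) and 43 (0.968%) of the other 4442 eligible loci. The median log2 fold change was −0.02 at members, −0.09 at the other eligible loci and 0.01 over all loci. In whole-tissue RNA, more cells of a type and more RNA per cell cannot be told apart. Without F/F Uprt replicate 1, 18 members were higher.

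In hearts without Uprt, 4 F/F against 3 +/+ mice in the same fit, 3.45% of loci were higher and 1.72% lower. Of the members, 46 (15.8%) were higher and 14 (4.79%) lower, against 122 (2.75%) and 348 (7.83%) of the other eligible loci. The median log2 fold change was −0.01 at members, −0.15 at the other eligible loci and 0.03 over all loci. These counts rested on few mice. Without F/F no Uprt replicates 1 and 2 together, 6 members were higher and 1 lower. Without replicate 1 alone, 19 were higher and 3 lower. Leaving out +/+ no Uprt replicate 1, 2 or 3 left 29, 25 or 30 higher and 6, 5 or 4 lower. With replicate 2, 3 or 4 of the F/F mice left out, 5, 23 or 30 were lower. A fit of these 7 libraries alone called 2 higher and none lower. Calls over all loci in these fits are not given, so a shift of the members cannot be told from a shift of all calls.

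The 2 comparisons used different mice. Of the 28 members higher with Uprt, 25 (89.3%) were among the 46 higher without it (54.3%), and all 28 and all 46 had a positive log2 fold change in the other comparison. Of the 65 other eligible loci higher with Uprt, 47 were among the 122 higher without it. The overlap was not counted without F/F no Uprt replicates 1 and 2, whose omission left far fewer members higher without Uprt. No member was called in opposite directions. In edgeR no member was called for a difference between the 2 Lmna effects (0% of loci called higher, 0% lower). DESeq2 called no member either. An unadjusted p under 0.05 in edgeR was reached by 44 of the 292 members (15 higher with Uprt, 29 lower). So did 2205 of all 31369 loci, and of the other 4442 eligible loci 282 were higher and 136 lower. In simulated counts the fit found 30 of 200 such differences of 1 on the log2 scale. The lack of calls therefore does not show that the 2 effects are alike.

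**Figure D4:**
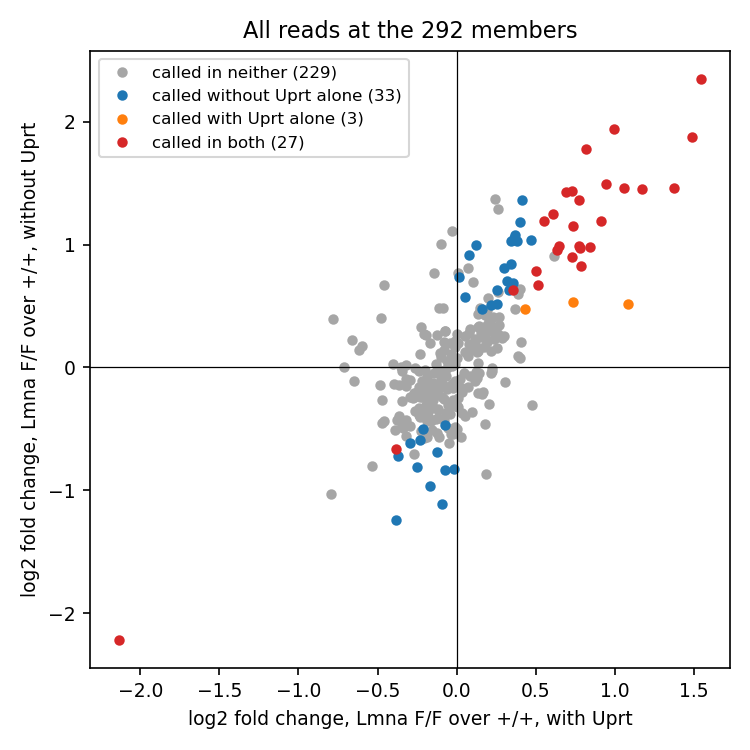
Log2 fold change of all reads, Lmna F/F over +/+, in hearts with Uprt (x axis; 6 against 8 mice) and without (y axis; 4 against 3 mice), for the 292 members, coloured by call at an edgeR adjusted p under 0.05. The 27 members called in both comparisons lie in the upper right (25) and lower left (2) quadrants.

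The members called higher with Uprt gained 0.35 to 1.54 on the log2 scale (median 0.77). The largest gain was at ENSMUST00000019071.4 (chr11:83478708-83479650, reverse strand, 943 bases). With Uprt it had 22.2 to 38.2 CPM (median 24.3) in +/+ and 43.0 to 98.6 CPM (median 82.3) in F/F hearts, without overlap. Without Uprt it had 19.7, 23.8 and 36.8 CPM in +/+ and 161, 210, 42.8 and 76.7 CPM in F/F hearts, again without overlap. The log2 fold changes were 1.54 ± 0.24 (SE; edgeR, adjusted p = 0.000239) and 2.35 ± 0.38 (adjusted p = 0.000497). The latter was 1.33 without F/F no Uprt replicates 1 and 2 (edgeR, adjusted p = 0.0149). Its T>C share was 4.69% ± 2.32 (n = 8), 4.80% ± 1.45 (n = 6), 4.92% ± 0.884 (n = 3) and 5.46% ± 1.62 (n = 4) in the +/+ Uprt, F/F Uprt, +/+ no Uprt and F/F no Uprt hearts, and the 4 groups overlapped.

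ENSMUST00000092163.9 (chr10:117113236-117114025, reverse strand, 790 bases) was the most abundant of the 6 largest gains. It had 131 to 216 CPM (median 162) in +/+ and 354 to 678 CPM (median 457) in F/F hearts with Uprt. Without Uprt it had 201, 144 and 182 CPM in +/+ and 870, 853, 349 and 473 CPM in F/F hearts. All F/F mice lay above all +/+ mice. The log2 fold changes were 1.49 ± 0.17 with Uprt (SE; edgeR, adjusted p = 7.20e-06) and 1.87 ± 0.27 without (adjusted p = 0.000179), the latter 1.24 without F/F no Uprt replicates 1 and 2 (adjusted p = 0.00845). Its T>C share was 1.41% ± 0.202 (n = 8) in +/+ and 1.86% ± 0.597 (n = 6) in F/F hearts with Uprt, and 1.74% ± 0.461 (n = 4) in F/F hearts without.

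At chr10:99597642-99597968 no T>C read was seen, and 100% of its reads to 3 digits were multimapped. It met the rule because both pooled Lmna +/+ shares were 0, so that its ratio was undefined. Its 21587 reads over the 21 libraries allow a share of up to 0.0139% (3 counts of this total over all groups, for counting error only). Whether conversions were counted in such multimapped reads was not determined, so the limit need not hold for the RNA. It had 10.9 to 17.1 CPM (median 14.9) in +/+ and 31.2 to 41.7 CPM (median 39.4) in F/F hearts with Uprt, without overlap. Its gain of 1.38 ± 0.13 on the log2 scale (SE) had an edgeR adjusted p of 4.59e-07. Since its reads map to other places too, the place they came from is uncertain.

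The other 3 of the 6 largest gains with Uprt were chr17:57510970-57511012 at 1.17 ± 0.17, chr11:120620315-120620547 at 1.08 ± 0.25 and chr7:30732155-30734565 at 1.06 ± 0.18 (log2 with SE, and edgeR adjusted p of 9.24e-05, 0.0132 and 0.000668). In the first of these, the 14 mice with Uprt fell into 30.5 to 71.9 CPM in +/+ and 78.8 to 128 CPM in F/F, and F/F without Uprt had 114, 126, 45.1 and 94.5 CPM against 35.3 to 42.3. Its change without Uprt was 1.46, and 1.01 without F/F replicates 1 and 2 (edgeR, adjusted p = 0.0356). At the second the genotypes overlapped in both comparisons, and without Uprt the change was 0.52 ± 0.36 (adjusted p = 0.514). At the third the 8 +/+ mice had 14.5 to 27.0 CPM and the 6 F/F mice 25.7 to 49.6 CPM. Its change without Uprt, 1.46, was 0.90 and no longer called without those 2 F/F mice (edgeR, adjusted p = 0.147).

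The 4 largest gains without Uprt were the first 2 loci above and chr5:90921032-90921237 and chr9:58195021-58196193. The locus on chromosome 5 had 32.4, 18.9 and 30.6 CPM in +/+ and 160, 151, 43.5 and 80.8 CPM in F/F hearts without Uprt. The gain was 1.94 ± 0.35 on the log2 scale (SE; edgeR quasi-likelihood, adjusted p = 0.00128), and 1.14 without F/F replicates 1 and 2 (adjusted p = 0.134). The locus on chromosome 9 had 18.4, 18.0 and 19.6 CPM in +/+ and 88.8, 64.7, 24.4 and 42.4 CPM in F/F hearts, a change of 1.78 ± 0.28 (edgeR, adjusted p = 0.000363), and 1.05 without F/F replicates 1 and 2 (adjusted p = 0.0288). F/F replicates 1 and 2 were the highest at both loci.

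**Figure D5:**
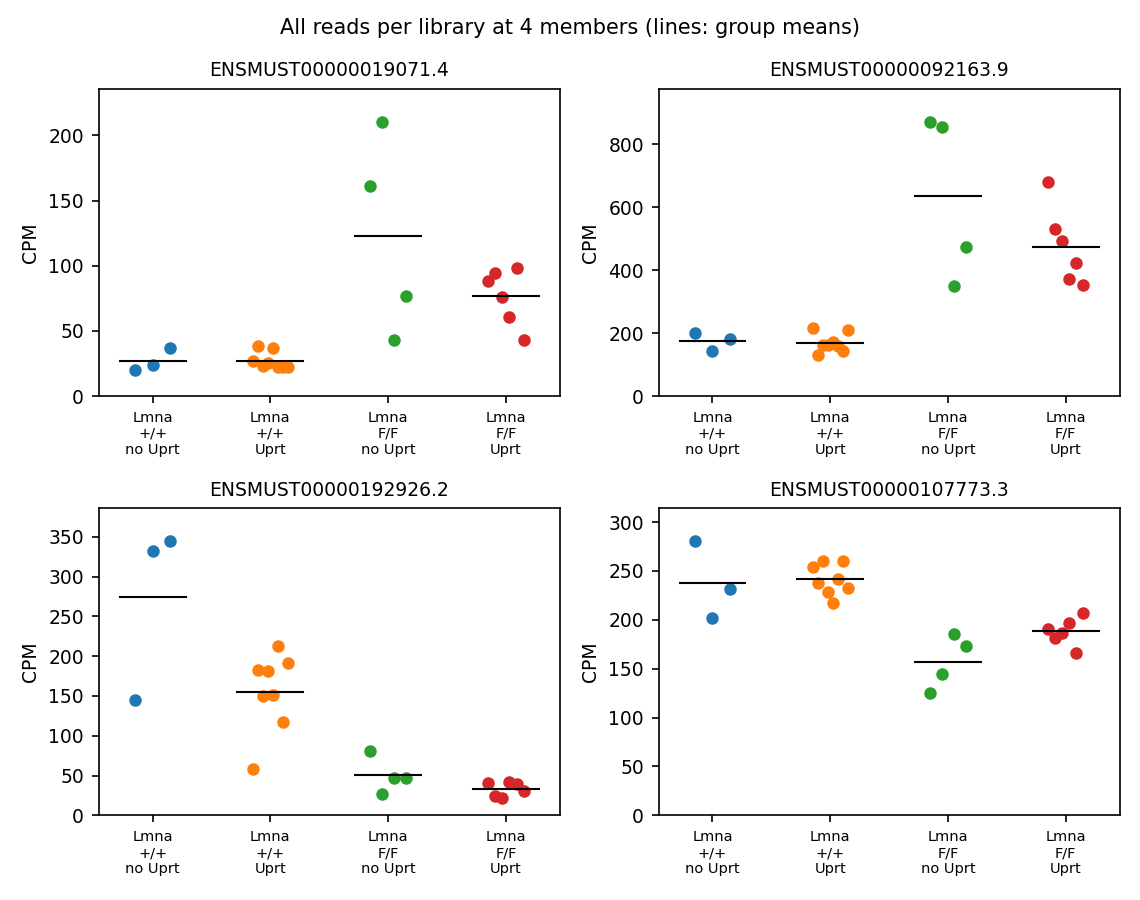
CPM of all reads per library (points) and group mean (lines) at the 2 members that rose and the 2 that fell with Lmna deletion and are given by transcript identifier, in the 4 groups. In the upper panels every F/F library lies above every +/+ library of the same Uprt status; in the lower panels it lies below.

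Both members that were lower in F/F with Uprt were also lower without it. ENSMUST00000192926.2 (chr3:63388533-63388614, reverse strand, 82 bases) had 57.8 to 213 CPM (median 166) in +/+ and 21.7 to 41.4 CPM (median 35.1) in F/F hearts with Uprt. Without Uprt it had 145, 332 and 344 CPM in +/+ and 80.8, 26.3, 46.8 and 47.5 CPM in F/F hearts. No F/F library reached a +/+ library of the same Uprt status. It fell by 2.13 ± 0.23 with Uprt (log2, SE; edgeR, adjusted p = 2.32e-06) and by 2.22 ± 0.32 without (adjusted p = 0.000168; 2.32 without F/F replicates 1 and 2), at T>C shares of 0.854% ± 0.331 (+/+ Uprt, n = 8) and 0.780% ± 0.320 (F/F Uprt, n = 6). It lies on chromosome 3, as the supplied gene table of another build places Lmna, and its distance from Lmna was not determined.

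ENSMUST00000107773.3 (chr4:46114379-46116032, forward strand, 1654 bases) had 217 to 260 CPM (median 239.7) in +/+ and 166 to 207 CPM (median 189) in F/F hearts with Uprt, without overlap. Without Uprt it had 280, 202 and 231 CPM in +/+ and 125, 145, 185 and 174 CPM in F/F hearts. It fell by 0.38 ± 0.09 (log2, SE; edgeR, adjusted p = 0.0236) and 0.66 ± 0.14 (adjusted p = 0.00451). The call with Uprt was lost when libraries were scaled by their size alone (adjusted p = 0.195) or when F/F replicate 2, 3 or 5 was left out (adjusted p = 0.0697, 0.0563 and 0.0679), and the call without Uprt when +/+ replicate 1 (adjusted p = 0.0568) or F/F no Uprt replicates 1 and 2 together (0.193) were left out.

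Without Uprt, the next largest falls were at chr9:69995793-69998048 (−1.25 ± 0.37, adjusted p = 0.0489), chr10:75619647-75619872 (−1.11 ± 0.25, adjusted p = 0.00961) and a locus on chromosome 18 (−0.97 ± 0.21, adjusted p = 0.00601; log2, SE; edgeR). The first overlapped between genotypes and lost its call in DESeq2 (adjusted p = 0.0618). It also lost it without +/+ no Uprt replicate 2 or 3 (edgeR, adjusted p = 0.317 and 0.0734) or F/F no Uprt replicate 1, 2 or 4 (adjusted p = 0.237, 0.119 and 0.0568). The second had 16.0, 10.2 and 14.1 CPM in +/+ and 5.51, 8.20, 8.05 and 8.47 CPM in F/F hearts, and lost its call without F/F replicate 1 (adjusted p = 0.0578) or +/+ replicate 1 (adjusted p = 0.0639). Without F/F no Uprt replicates 1 and 2 together, none of the 3 kept its call (−0.80, −0.96 and −0.64; edgeR, adjusted p = 0.656, 0.266 and 0.206). With Uprt these 3 loci changed by −0.39, −0.09 and −0.17, none past the threshold (adjusted p = 0.542, 0.889 and 0.679).

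Few members that rose with Lmna deletion were called for added T>C share in F/F hearts, in a test of limited power. In simulated counts that test recovered 0% of 200 loci with a log2 change of 1, and 25.2% when 5428 of 10370 loci were raised. The lack of calls therefore does not show that these members gained no label. Of the 28 higher with Uprt, 26 could be tested for T>C share in F/F hearts, and edgeR called 0 higher and 1 lower with Uprt (0 higher and 2 lower at an unadjusted p under 0.05). The quasi-binomial model called 0 higher and 1 lower. Their median log2 odds ratio was −0.05, with a range of −0.61 to 0.62. Of the 46 higher without Uprt, 44 could be tested, and edgeR called 1 higher and 2 lower, with a median of −0.04 and a range of −1.84 to 1.95. Of the members called in neither Lmna comparison, 27 of 196 were higher, with a median of 0.24. Of the other eligible loci that were higher in both comparisons, 21 of 47 were higher in T>C share, with a median of 0.75. Whether these sets differ was not tested, and the share in F/F hearts with Uprt and the Lmna effect with Uprt use the same 6 libraries, as the share and the Lmna effect without Uprt use the same 4.

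Runs of neighbouring members did not all move together. On chromosome 10, chr10:97407914-97408565 was higher in F/F hearts in both comparisons (0.55, adjusted p = 0.0468, and 1.19, adjusted p = 0.00217; log2, edgeR). Its neighbours chr10:97319201-97319613 (0.69, adjusted p = 0.0295) and chr10:97353518-97354005 (0.48, adjusted p = 0.0210) were called without Uprt alone. The call of the latter was lost without F/F no Uprt replicate 1 (adjusted p = 0.0733), replicates 1 and 2 together (adjusted p = 0.274) or +/+ no Uprt replicate 1 or 2 (adjusted p = 0.186 and 0.0705). The other loci in runs were not tested without these libraries. On chromosome 3 none of the 4 neighbours was called in either comparison. At 3 of them, between 90577146 and 90600052, the log2 changes without Uprt were 1.37, 1.29 and 1.01 with adjusted p of 0.565, 0.599 and 0.689. On chromosome 6 only chr6:48810752-48810986 was called (0.79, adjusted p = 0.00172, and 0.83, adjusted p = 0.0207). On chromosome 7, chr7:140589499-140589637 was higher in both (0.78, adjusted p = 0.00197, and 0.99, adjusted p = 0.00635), while chr7:140426546-140426682, at the other end of the run, was lower without Uprt (−0.83, adjusted p = 0.0275).

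In the main edgeR fit no member was called for a difference in level between the 2 Lmna +/+ groups whose T>C shares chose them. In simulated counts the fit found 52.5% of 200 loci with a log2 change of 1 in this comparison. The lack of calls therefore does not show equal levels. With Uprt against without, 8 against 3 mice, edgeR called 0% of loci higher and 0% lower. Of the 292 members, 26 reached an unadjusted p under 0.05 in edgeR (19 higher, 7 lower), as did 2244 of all 31369 loci. DESeq2 called 1 member higher. The median log2 difference of members was 0.01, with a range of −1.40 to 1.27. All 3 mice without Uprt were male, and in males alone edgeR called 1 member lower.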

How the data were processed

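SLAM-IT-seq libraries of 21 mouse hearts were made with a QuantSeq 3′ kit and read as single ends of 100 bases, after alkylation of 1.5 µg of RNA in 12 mM iodoacetamide, per the labels' protocols. The deposited table gives counts for each 3′ UTR interval and library, per the file headers: reads, T>C reads, multimapped reads, read bases over T and conversions. It also gives length and T content. Per the submitters' processing notes, positions refer to mm39. How reads were aligned and whether variants were masked is not given in the sources used here. 0 columns belonged to samples outside the labels.

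The members, lists and tests were chosen with earlier results of these data known. The gene lists and cell type markers were not run, because the supplied gene tables matched none of the transcript identifiers. Loci are therefore given by position. Those described singly were the 8 most read members, the 6 (with Uprt) or 4 (without) with the largest called change in each direction, the 4 with the largest called difference of T>C share in each direction, and the 3 on each side of the ratio limit. Loci in runs were singled out after their values were seen.

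The main test on all reads was edgeR's quasi-likelihood test (edgeR 4.0.16, R 4.3.3; TMM, group and sex, loci kept by filterByExpr at a minimum count of 10) and Benjamini-Hochberg adjusted p at 0.05 over all loci tested. T>C and unconverted reads of the 10 F/F libraries were tested in edgeR with a library effect, read type by sex and read type by Uprt, at loci with at least 10 T>C reads in at least 4 libraries. SE is the log2 value over the square root of F. CPM uses TMM-scaled library sizes. Alternatives were DESeq2 1.42.0, its size factors, library size alone, no filter, no sex term, 2 groups alone, summed transcripts, multimapped reads subtracted, conversions per T, quasi-binomial fits moderated by limma 3.58.1, other limits of the rule, and each library left out. The joint omission of F/F no Uprt replicates 1 and 2 and the subsets of members were added after seeing the data. The labels give 1 library per mouse and no batch beyond a shared pool, so p-values measure the spread between mice and libraries together.

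Tested on simulated counts in which 200 loci had a log2 change of 1, the fit found 80.0% of them for the Lmna effect with Uprt (of 30174 loci), 31.5% for that effect in hearts lacking Uprt (of 30162), 15.0% for the difference of both (of 30174) and 52.5% for Uprt in +/+ hearts (of 30097). For the T>C share, 0% of 200 changed loci were recovered, and 25.2% when 5428 of 10370 loci were raised.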

Additional observations from a re-analysis of the deposited data

Results flagged for a closer look

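At 9 of the 90 groups of 4 to 8 mice examined, 1 library lay apart from the rest of its group by Dixon's criterion at a level where chance alone gives about 1 group in 20. In CPM, these were Lmna +/+ Uprt replicate 7 at chr1:120041020-120041263 (387 CPM, against 591 to 770 in the other 7), replicate 1 at chr3:63388533-63388614 (57.8 CPM, against 117 to 213) and replicate 2 at chr10:75619647-75619872 (4.99 CPM, against 12.2 to 22.4). Among F/F hearts they were Uprt replicate 2 at chr7:140478858-140478900 (612 CPM, against 763 to 796) and at chr10:99597642-99597968 (31.2 CPM, against 37.5 to 41.7), and no Uprt replicate 1 at chr10:75619647-75619872 (5.51 CPM, against 8.05 to 8.47). In T>C share they were Lmna +/+ Uprt replicate 2 at chr11:116536421-116537784 (4.68%, against 0.491 to 1.46%), replicate 8 at chrX:72538403-72539539 (1.62%, against 0.730 to 1.09%) and F/F Uprt replicate 1 at chr10:76544626-76545392 (9.41%, against 0.923 to 2.22%).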

How the results depend on the processing

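No paired analysis was possible because the labels number no replicates and the libraries are only ordered by accession. The member rule gave 513 loci at the wider of the ratio limits tried, 162 with at least 3000 reads and 498 with at least 750, and 167 to 356 with 1 Lmna +/+ library left out; males alone gave 416, of which 231 were shared. For the Lmna effect with Uprt, 49 members were higher with library size alone, 18 to 32 with 1 library left out. Lower were 5 in DESeq2, 1 with library size alone, 16 without a filter, 7 with the 2 groups alone, and 1 to 3 with 1 library left out. Without Uprt, the 2 groups alone gave 2 higher and 0 lower (the cause was not tested; 7 libraries entered that fit), library size alone 5 lower, and omission of F/F no Uprt replicates 1 and 2 together 6 higher and 1 lower. With 1 library left out, 19 to 50 were higher and 3 to 30 lower. Scaling by library size alone moved the median of all loci to 0.16 with Uprt and 0.17 without. Uprt against none in +/+ hearts gave 1 higher in DESeq2 and 1 lower in males alone. For the T>C share in F/F hearts, 19 members were higher without F/F no Uprt replicates 1 and 2, 2 were lower with all 21 libraries in the fit, and with 1 library left out 22 to 34 were higher and 1 to 3 lower. These counts are of members alone, without the calls over all loci in the same fits. The cause of these shifts was not tested. Of 616 values of single called loci under alternatives, 540 kept their call, 76 lost it and 0 turned. Depth limits the T>C share, since the median member had 77 T>C reads in the 3 Lmna +/+ mice without Uprt.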
